A study of Onthophagus taurus with 96 samples.

Results

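The comparison described here set the genital tissue of control *O. taurus* males against their 2 horn epithelia, and it used 18 of the 96 libraries of the series, chosen by their treatment, sex and tissue labels. The genitalia group held 6 libraries (S91 to S96), the head horn group 6 (S67 to S72) and the thoracic horn group 6 (S43 to S48), and genitalia were compared with the average of both horn tissues and with each of them. *O. taurus*, the bull-headed dung beetle, was studied to find how the transcription factor Doublesex (Dsx) shapes tissues that differ between the sexes, and RNA was sequenced from brains, genitalia, head horns and thoracic horns of pupae in their first day. All 18 samples came from males that had been injected in the final larval instar with 1 μg of double-stranded RNA made from a cloning vector, in 3 μl, so that every library of the comparison carries this control injection. Genital tissue was the epidermis of the posterior-most abdominal segments with the external copulatory organ, thoracic horn tissue was the dorsal side of the first thoracic segment, and head horn tissue was the epithelium at the back of the dorsal head. The same tissues of control females (18 libraries) and of males given 0.5 μg of double-stranded *dsx* RNA (*dsx*RNAi males, 18 libraries) were used to ask whether the tissue difference itself depended on sex or on *dsx*.

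The tissues compared are sheets of epidermis that arise from different positions along the body. In insects, Hox genes give each region along this axis its identity, and appendages and genitalia grow from such sheets under the control of shared signals, among them Wnt, Hedgehog and BMP proteins, and of transcription factors that mark their parts. In *O. taurus*, thoracic horns are resorbed before the adult emerges and head horns persist as weapons of large males.

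Between 6490565 and 13597870 reads fell on genes in the genitalia libraries, between 8004106 and 12363703 in the head horn libraries and between 3615803 and 8729656 in the thoracic horn libraries. Horn libraries were dominated by fewer genes, with 26.8% to 45.5% of reads in head horns and 25.99% to 37.3% in thoracic horns on the 20 most abundant genes of each library, against 11.9% to 15.03% in genitalia. The TMM factors that correct for such differences in composition were 1.39 to 1.47 in genitalia, 0.609 to 1.04 in head horns and 0.705 to 0.960 in thoracic horns. Head horn libraries S69 and S70 stood apart from the other 4 on the first components of variance. The first component took 46.5% of the variance of the log2 of counts scaled to TMM-corrected library size (CPM) and separated genitalia from all 12 horn libraries, and the second took 11.6% and separated head from thoracic horns. Within groups Pearson's r between libraries on that scale was 0.954 to 0.970 in genitalia, 0.911 to 0.972 in head horns and 0.912 to 0.957 in thoracic horns, and it was 0.791 to 0.915 between genitalia and head horns and 0.828 to 0.892 between genitalia and thoracic horns.

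**Figure D1:**
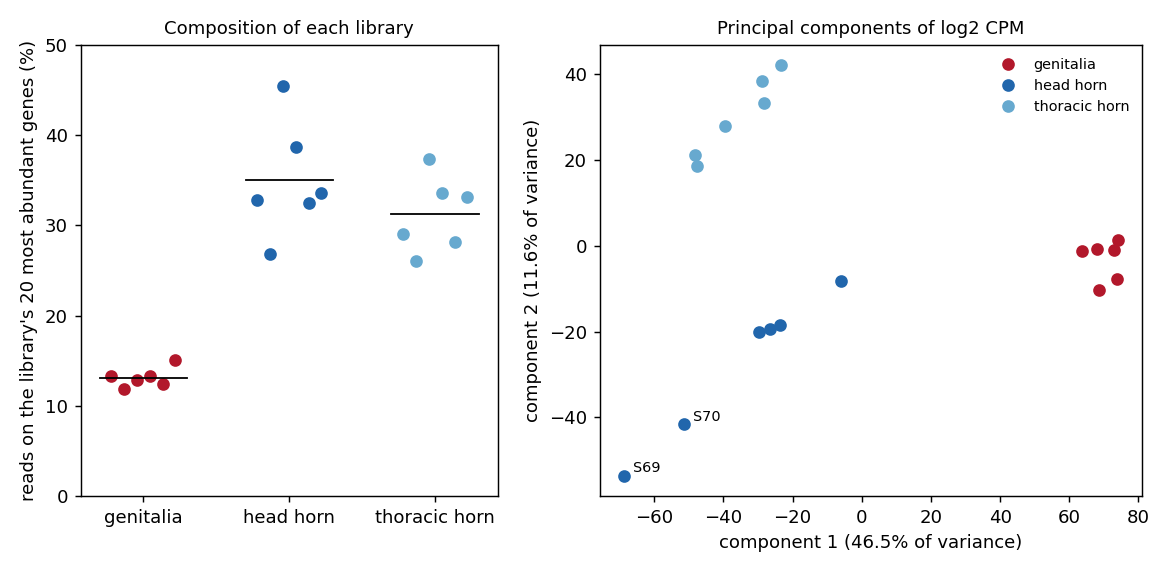
Left, the share of reads (%) on the 20 most abundant genes of each of the 18 libraries, with 1 point per library and a line at the mean of each tissue. Right, the same libraries on the first and second principal components of log2 CPM, where the 6 genitalia libraries lie apart from the 12 horn libraries and head horn libraries S69 and S70 lie apart from the other 4. Genitalia held 11.9% to 15.03% of reads on these genes and every horn library more.

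The labelled tissues were first checked against the Hox genes, since these mark position along the body. *Abdominal-B* (Dmel-Tmp-abd-b, OTAU010250; scaffold 49, 168959 to 176176), which specifies the posterior abdomen and the genitalia in flies, had 207, 209, 159, 177, 197 and 206 CPM in the 6 genitalia libraries. In the 12 horn libraries it lay between 0 and 0.467 CPM, with 13 reads in all, so the groups did not overlap. Its log2 fold change of genitalia over the horn average was 10.21 (standard error 0.25, adjusted p = 1.06e-14 in edgeR's quasi-likelihood test). *Ultrabithorax* (Dmel-Tmp-ubx), which acts in the posterior thorax and the abdomen, had 2.55, 3.97 and 4.64 CPM as its lowest, median and highest value in genitalia. It was at 0 in 10 of the 12 horn libraries, with 0.120 CPM in head horn library S68 and 1.12 in thoracic horn library S46. *abdominal-A* (Dmel-Tmp-abd-a) had 31, 11, 9, 18, 4 and 10 reads in genitalia libraries S91 to S96 and none in any horn library, but too few reads for the test. *Antennapedia* (Dmel-Tmp-antp), the Hox gene of the anterior trunk, had 10.05, 12.4 and 20.5 CPM as its lowest, median and highest value in thoracic horns, against 1.76, 2.41 and 3.06 in genitalia and 0.101, 0.442 and 0.862 in head horns. The 3 tissues did not overlap in *Antp*, which was higher in genitalia than in head horns (log2 fold change 2.34, adjusted p = 1.4e-04) and lower than in thoracic horns (-2.46, adjusted p = 1.8e-05), and its difference from the horn average was -0.06 (adjusted p = 0.915). Of the 12 Hox symbols searched for, 4 were in the table, 3 passed the filter on low counts, and 2 of these were higher in genitalia. These 2, *Abdominal-B* and *Ultrabithorax*, could pass the filter only through genitalia, so the count is not read.

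Of 9917 genes tested, 2428 (24.5%) were higher in genitalia than in the horn average and 2533 (25.5%) were higher in the horn average (quasi-likelihood F test of edgeR, Benjamini–Hochberg adjusted p under 0.05). Tested against a fold threshold of 2 rather than against equality, 528 (5.32%) were higher in genitalia and 353 (3.56%) in the horns. Against head horns alone the numbers were 2259 (22.8%) and 2321 (23.4%), and against thoracic horns alone 1983 (20%) and 2234 (22.5%). Both comparisons share the 6 genitalia libraries. For 1571 genes (15.8%) genitalia were higher than each horn tissue, for 1786 (18%) each horn tissue was higher than genitalia, and for 709 (7.15%) the horn tissues themselves differed in the same fit. The 6 genitalia libraries lay above all 12 horn libraries in 827 genes (8.34%) and below all 12 in 797 (8.04%), and all of these passed the test. Because the tissues are bulk samples, fewer cells of a type and less RNA per cell cannot be told apart in any of these differences. The split between directions rested on the scaling. With reads per library total in place of TMM factors, an alternative added after the data had been examined, the median log2 fold change of all genes moved from 0.02 to 0.77, and 94.2% of the genes called were higher in genitalia, against 48.9%. Changes are given below relative to the TMM scaling.

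**Figure D2:**
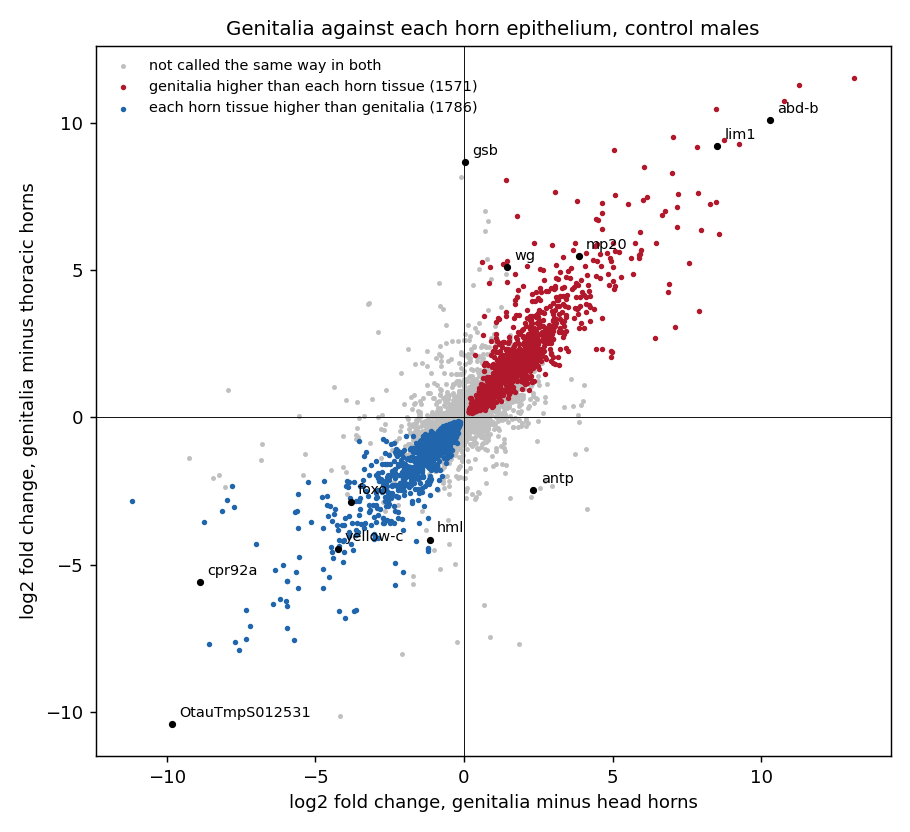
Each of the 9917 tested genes by its log2 fold change of genitalia over head horns (horizontal axis) and over thoracic horns (vertical axis) in control males, with the 1571 genes higher in genitalia than in each horn tissue in red, the 1786 lower than in each in blue and the others in grey. *abd-b* and *lim1* lie far up on both axes, *gsb* only on the thoracic axis and *antp* in opposite directions. The horn axes share the 6 genitalia libraries, so the points lie near the diagonal in part by construction.

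Of the 15 genes with a homologue name and the largest differences, 11 are named after DNA-binding regulators of animal development, which are *abd-b*, *fd96Ca*, *lim1*, *otp*, *sim1*, *Sp1*, *fkh*, *Pax9*, *Cdx2*, *retn* and *Six4*. This is a description of the genes named, since the share of such regulators among all tested genes was not counted. *Lim1* (Dmel-Tmp-lim1, OTAU014115; scaffold 1330, 41503 to 53504), a LIM-homeodomain factor of the distal leg and antenna in flies, had 146, 177 and 225 CPM as its lowest, median and highest value in genitalia. No horn library had more than 0.962 CPM of it, and its log2 fold change was 8.87 (standard error 0.25, adjusted p = 6.77e-14). *Sp1* (Dmel-Tmp-sp1, OTAU012706), a zinc finger factor of limb growth, had 22.8, 38.1 and 41.4 CPM in genitalia, 0.134, 0.665 and 2.93 in head horns and at most 0.156 in thoracic horns, and it was 133-fold higher than the geometric mean of the horn tissues. *Single-minded 1* (Hsap-Tmp-sim1, OTAU007377), named after a human gene whose fly homologue is a master regulator of the ventral midline, had 45.5 ± 19.5 CPM (SD, n = 6) in genitalia and at most 0.577 in any horn library. None of these groups overlapped.

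Several of these factors are known from the posterior end of the embryo and the hindgut. *fork head* (Dmel-Tmp-fkh, OTAU005217), which specifies terminal gut and salivary gland in flies, had 10.6 ± 5.58 CPM in genitalia against 0.072 ± 0.0794 in head horns and 0.104 ± 0.189 in thoracic horns (SD, n = 6 each), although genitalia library S96 had 2.099 CPM. *Cdx2* (Hsap-Tmp-cdx2), named after a mammalian relative of the posterior gene *caudal*, had 18.7 ± 2.31 CPM in genitalia and no more than 0.966 in any horn library (log2 fold change 5.71, adjusted p = 5.90e-09). *brachyenteron* (Dmel-Tmp-byn), a T-box factor of the hindgut, was detected in every library, with 15.6 ± 3.30 CPM in genitalia, 4.25 ± 1.88 in head horns and 4.37 ± 1.54 in thoracic horns (SD, n = 6 each), and its groups did not overlap. *odd paired* (Dmel-Tmp-opa), a zinc finger gene of embryonic segmentation, had 6.34, 12.1 and 15.1 CPM as its lowest, median and highest value in genitalia and at most 0.802 in the horns. Of the 12 genes on the list of trunk and terminal patterning genes 6 passed the filter on low counts, and *fkh* and *opa* could pass it only through genitalia, so no count over the list is read. *runt* (Dmel-Tmp-run), a segmentation gene, was also higher in genitalia (log2 fold change 3.02), while Dmel-Tmp-tio (0.18, adjusted p = 0.241) and Dmel-Tmp-slp2 (0.31, adjusted p = 0.517) did not pass the test. *Uro* (Dmel-Tmp-uro), a urate oxidase gene of the Malpighian tubules in flies, was also higher in genitalia, at 120 ± 35.9 against 13.6 ± 7.08 in head horns and 28.7 ± 29.6 in thoracic horns (SD, n = 6 each). With *fkh* and *byn* it made up the 3 of 8 tested gut and tubule genes that were higher in genitalia, while 2 were higher in the horns. These counts on the gut list stand beside 24.5% and 25.5% of all genes. As *fkh* could pass the filter only through genitalia, they are not read. The summed level of that list was 332 to 479 CPM in genitalia, 291 to 948 in head horns and 382 to 622 in thoracic horns, and the part of gut tissue in these differences was not tested.

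For some of these genes the horns gave so few reads that a fitted fold change depends on the count that edgeR adds. *fd96Ca* (Dmel-Tmp-fd96ca, OTAU002778; scaffold 4, 652833 to 653570), a forkhead domain factor, had 6.44, 8.28 and 9.59 CPM as its lowest, median and highest value in genitalia and no read in any horn library. Against a floor of 3 reads in each horn library it was at least 18.1-fold higher. *orthopedia* (Dmel-Tmp-otp, OTAU001508), a homeobox gene of neurons and hindgut in flies, had 9.49 ± 3.07 CPM in genitalia (SD, n = 6) and 3 reads in the horns, a ratio of depth-corrected counts of 283 (exact 95% interval 96.4 to 1374, for counting error only). The gene named *d* (Dmel-Tmp-d, OTAU004234), a name that more than 1 fly gene carries once case is lost, had 10.1 ± 1.87 CPM in genitalia and 3 reads in the horns, a ratio of 297 (101 to 1442). In these 3 genes every genitalia library was above every horn library.

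*Pax9* (Hsap-Tmp-pax9), a paired-box factor, had 16.1 ± 6.02 CPM in genitalia against 0.239 ± 0.152 in head horns and 0.319 ± 0.367 in thoracic horns (SD, n = 6 each). *retained* (Dmel-Tmp-retn, OTAU005667; scaffold 260, 98907 to 109962), an ARID-domain factor, had 92.2 ± 15.6 CPM in genitalia, and its horn levels were uneven, at 0.134 to 10.3 CPM in head horns and 0 to 2.59 in thoracic horns. *Six4* (Dmel-Tmp-six4) and *sine oculis* (Dmel-Tmp-so), both homeobox factors of the *sine oculis* family, were 44.4-fold and 7.14-fold higher in genitalia than in the horns, with 7.27 ± 5.12 and 33.5 ± 4.99 CPM in genitalia (SD, n = 6 each). In both, all 6 genitalia libraries exceeded all 12 horn libraries. The other 3 genes of the 15 have names of fly genes without a described role here. Dmel-Tmp-cg14949 had 30.3, 38.8 and 306 CPM as its lowest, median and highest value in genitalia and at most 0.504 in the horns. Dmel-Tmp-cg13229 had 47.4 ± 18.3 CPM in genitalia and 0.377 to 1.15 in the horns, and Dmel-Tmp-cg12164 had 6.09 ± 4.26 CPM (SD, n = 6 each) and at most 0.410 in the horns.

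5 genes without a homologue name had at most 2 reads in all 12 horn libraries together. OtauTmpM011151 (OTAU011151; scaffold 629, 23901 to 28437) had 34.4, 78.4 and 255 CPM as its lowest, median and highest value in genitalia and 1 read in all 12 horn libraries together. OtauTmpM012712 (scaffold 524, 90693 to 109856) had 18.7 to 27.9 CPM in genitalia and OtauTmpA010484 (scaffold 307, 101115 to 101737) had 9.28 to 71.1 CPM, and neither had a read in any horn library, which makes them at least 50.8-fold and 73.1-fold higher in genitalia. OtauTmpM011431 had 4.09 to 8.95 CPM and 1 horn read. OtauTmpS014116 (scaffold 1330, 73794 to 75569) had 18.6 ± 4.26 CPM in genitalia (SD, n = 6), 2 horn reads, and lies 20290 bases from *lim1* on the same strand. OtauTmpM011151 overlaps a gene model on the opposite strand. Whether reads were counted by strand is not given in the sources used here, so its reads cannot be assigned with certainty.

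Some other neighbours of the named genes differed in the same direction and some in the other. Of 15 tested neighbours of the first 20 genitalia-high genes, 9 were called the same way and 3 the other way. For the first 20 horn-high genes it was 13 of 23 and 3. Some of these neighbours are themselves named genes. Of all genes 24.5% were higher in genitalia and 25.5% in the horns. The gene next to *otp*, Hsap-Tmp-aadat, was higher in the horns (log2 fold change -1.35). OtauTmpM010251, 4460 bases from *abd-b* on the same strand, had 3.29 CPM in genitalia, 0 in head horns and 0.0267 in thoracic horns on average. OtauTmpM005666 lies 63639 bases from *retn* and was also higher in genitalia (log2 fold change 5.60). Adjacent gene models can be parts of 1 gene, and no test of adjacency was made.

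**Figure D3:**
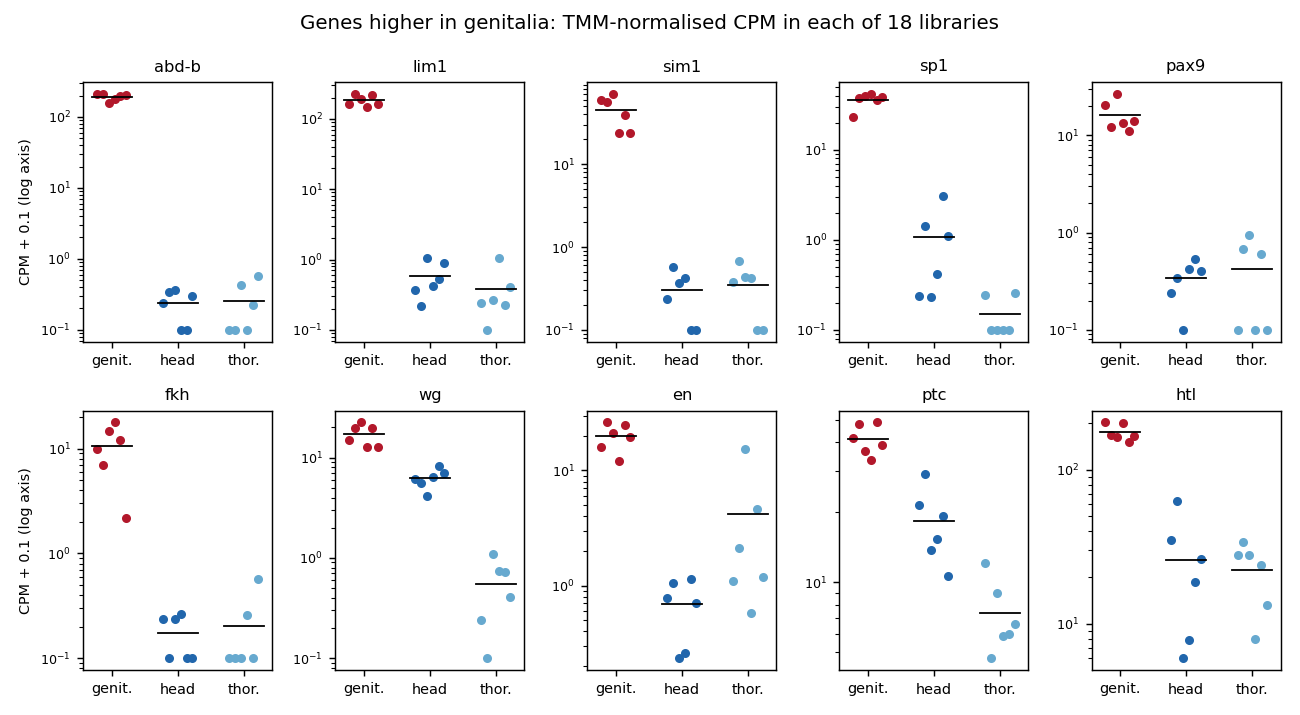
TMM-normalised CPM plus 0.1 on a log axis in each of the 18 libraries (1 point each, line at the tissue mean) for 10 genes higher in genitalia than in the horn average. The genitalia libraries of *abd-b* lie at 159 to 209 CPM and those of *lim1* at 146 to 225, above all horn libraries. *wg* was intermediate in head horns, and thoracic horn library S45 overlapped genitalia in *en*, at 15.4 CPM.

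Single genes of the Wnt, Hedgehog, BMP and FGF pathways differed, and in *wg* and *Wnt6* the head horns lay between genitalia and thoracic horns. *wingless* (Dmel-Tmp-wg, OTAU002716; scaffold 3, 1559934 to 1560497), the founding Wnt ligand, had 12.6, 17.2 and 22.4 CPM as its lowest, median and highest value in genitalia, 4.02, 6.14 and 8.10 in head horns and 0, 0.470 and 1.00 in thoracic horns. *Wnt6* (Hsap-Tmp-wnt6; scaffold 3, 1604170 to 1611470), a ligand next to it in the genome, had 40.98 ± 4.65, 26.9 ± 5.41 and 1.02 ± 0.963 CPM in the same order (SD, n = 6 each). The 3 tissues did not overlap in either ligand, and *Wnt6* differed little from head horns (log2 fold change 0.60, adjusted p = 0.048) and strongly from thoracic horns (5.30, adjusted p = 2.4e-09). *gooseberry* (Dmel-Tmp-gsb), a paired-box gene that maintains *wg* in flies, had 27.2 ± 9.43 CPM in genitalia and 26.7 ± 14.3 in head horns (SD, n = 6 each), a log2 difference of 0.03 (adjusted p = 0.95), and at most 0.160 in thoracic horns. *engrailed* (Dmel-Tmp-en), the homeobox gene of posterior compartments, had 12.1, 20.3 and 26.1 CPM in genitalia, at most 1.03 in head horns, and 0.481, 1.55 and 15.4 in thoracic horns, where library S45 alone reached the genital range. On the segment polarity and Wnt list 7 of 11 tested genes were higher in genitalia and 2 in the horns, beside 24.5% and 25.5% of all genes. The median log2 fold change of the list was 0.75. On this list *en* could pass the filter only through genitalia, so neither the count nor the median is read.

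In the Hedgehog pathway, *patched* (Dmel-Tmp-ptc), the receptor and itself a target of the signal, had 33.5, 40.3 and 48.6 CPM as its lowest, median and highest value in genitalia, 10.5, 17.3 and 29.2 in head horns and 4.61, 6.22 and 12.0 in thoracic horns, without overlap between genitalia and the horns. *smoothened* (Dmel-Tmp-smo), the transducer that Patched holds back, had 110 ± 6.03 CPM in genitalia against 68.1 ± 6.13 and 67.1 ± 10.3 (SD, n = 6 each; log2 fold change 0.71, adjusted p = 8.55e-07). *cubitus interruptus* (Dmel-Tmp-ci), the transcription factor of the pathway, differed less, at 0.46 (adjusted p = 0.0038), with overlapping groups of 105 to 196 CPM in genitalia and 95.3 to 144 in the horns, and it did not pass in a fit of all 96 libraries. Of 11 tested genes on the list, 5 were higher in genitalia and 3 in the horns, beside 24.5% and 25.5% of all genes, so nothing is read from the count.

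Among BMP genes, the ligand *decapentaplegic* (Dmel-Tmp-dpp) had 38.04 ± 2.81 CPM in genitalia, 25.3 ± 5.33 in head horns and 19.3 ± 6.53 in thoracic horns (SD, n = 6 each; log2 fold change 0.79, adjusted p = 7.62e-04), with the lowest genitalia library at 33.5 and the highest head horn library at 33.6. *tolkin* (Dmel-Tmp-tok), a protease that frees BMP ligands by cutting their inhibitor Sog, was 7.66-fold higher in genitalia, with 94.7 ± 20.5 against 17.03 ± 16.8 and 8.88 ± 2.88 CPM (SD, n = 6 each), whereas the inhibitor gene *short gastrulation* (Dmel-Tmp-sog) was 2.95-fold higher in the horns, at 33.6 ± 8.02 against 115 ± 30.9 and 85.3 ± 44.6 CPM. The groups of neither gene overlapped. *crossveinless* (Dmel-Tmp-cv), whose protein carries BMPs in the fly wing, had 122 ± 16.4 CPM in genitalia against 77.03 ± 7.67 and 59.8 ± 5.53 (SD, n = 6 each). The FGF receptor gene *heartless* (Dmel-Tmp-htl), which guides mesoderm and muscle precursors, had 151, 166 and 202 CPM as its lowest, median and highest value in genitalia and 5.90 to 62.6 in the 12 horn libraries (log2 fold change 2.86, adjusted p = 7.53e-06). Over the lists, beside 24.5% and 25.5% of all genes, 5 of 13 tested BMP genes and 5 of 14 tested EGF and FGF genes were higher in genitalia, and 3 and 4 were higher in the horns, and nothing is read from these counts either.

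Genes known from the fly genital primordium were higher in genitalia in 8 of 10 tested cases, but members near 0 in the horns, such as *abd-b* and *fkh*, could pass the filter only through genitalia, so the count is no support. *dsx* was the only one higher in the horns, a call that turned in direction under scaling by library totals. The list shares *abd-b*, *wg*, *en*, *dpp* and *fkh* with those above and is not separate from them. Its limb genes *dac* and *Dll* were higher in genitalia than in thoracic horns but not than in head horns. *dachshund* (Dmel-Tmp-dac), a gene of the middle part of appendages, had 4.30 to 9.10 CPM in genitalia, 7.16 to 21.3 in head horns and 0 to 0.502 in thoracic horns, so that genitalia were lower than head horns (log2 fold change -0.85, adjusted p = 0.015) and higher than thoracic horns (4.55, adjusted p = 7.5e-08). *Distal-less* (Dmel-Tmp-dll), a gene of limb tips, had 2.17 ± 0.438 CPM in genitalia, 1.68 ± 0.263 in head horns and 0.278 ± 0.198 in thoracic horns (SD, n = 6 each), and its difference from head horns of 0.37 did not pass the test (adjusted p = 0.33). *spineless* (Dmel-Tmp-ss), which specifies the antenna and distal leg in flies, and *rotund* (Dmel-Tmp-rn), a zinc finger gene of the middle leg, were 7.49-fold and 3.87-fold higher in the horns. All 12 horn libraries exceeded all 6 genitalia libraries in both, with *ss* at 10.9 to 38.2 against 2.06 to 3.53 CPM. The list of appendage genes as a whole had 9 higher in genitalia and 8 higher in the horns of 18 tested. These counts stand beside 24.5% and 25.5% of all genes. On this list *lim1* and *Sp1* could pass the filter only through genitalia, so the count is not read.

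Of 23 tested cuticle protein and chitin genes 13 were higher in the horns and 4 in genitalia, beside 25.5% and 24.5% of all genes, with a median log2 fold change of -0.57. Under scaling by library totals 8 were higher in each, and the median turned to 0.19. The summed level of the list was 10007 to 14862 CPM in genitalia, 27445 to 73059 in head horns and 24671 to 60828 in thoracic horns. *Cht3* (Dmel-Tmp-cht3, OTAU002012), a chitinase gene, had 1970, 2248 and 3808 CPM as its lowest, median and highest value in genitalia, 11118, 18704 and 27795 in head horns and 7918, 14099 and 31035 in thoracic horns. *Cda4* (Dmel-Tmp-cda4) and *serpentine* (Dmel-Tmp-serp), genes of enzymes that deacetylate chitin, were 5.97-fold and 4.98-fold higher in the horns, and *trynity* (Dmel-Tmp-tyn), a gene of the apical surface matrix, 4.67-fold. In none of these 4 genes did genitalia overlap the horns.

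2 cuticle protein genes varied widely between libraries. *Cpr92A* (Dmel-Tmp-cpr92a, OTAU007158; scaffold 20, 215835 to 216464) had 0.0928 to 0.486 CPM in genitalia, 6.23 to 655 in head horns and 1.00 to 54.8 in thoracic horns, with its highest horn levels in libraries S69 and S45. Its groups did not overlap (log2 fold change -7.24, standard error 1.60, adjusted p = 1.22e-03). *Cpr72Eb* (Dmel-Tmp-cpr72eb, OTAU002704) had 502, 1088 and 3729 CPM as its lowest, median and highest value in genitalia, 7301, 11819 and 51178 in head horns and 7057, 9208 and 28266 in thoracic horns. Its highest 2 libraries of each tissue were S93 and S94 (3729 and 3579), S69 and S70 (51178 and 28354) and S45 and S46 (28266 and 14247), which are the third and the fourth by number in each tissue. *Cht3*, and *Dat* described below, also had their highest 2 libraries of each tissue at these places. Whether libraries at the same place in the numbering share an animal is not given in the labels. Without libraries S69 and S70, left out together after their position had been seen, *Cpr92A* and *Cpr72Eb* remained higher in the horns, as did every other horn-high gene named here. In that fit 2419 genes were higher in genitalia and 2478 in the horns.

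Genes of the tanning and pigmentation of cuticle went both ways. *yellow-c* (Dmel-Tmp-yellow-c, OTAU014241; scaffold 330, 43410 to 49180), of a family of secreted proteins that act in pigmentation, had 180, 274 and 640 CPM as its lowest, median and highest value in genitalia, 3762, 6562 and 9020 in head horns and 5868, 7526 and 9826 in thoracic horns, a 20.5-fold difference (log2 fold change -4.36, standard error 0.30, adjusted p = 5.77e-09). *yellow-f2* (Dmel-Tmp-yellow-f2), of the same family, was 5.95-fold higher in the horns and *Dat* (Dmel-Tmp-dat, OTAU007795), the gene of an enzyme that acetylates dopamine, 6.82-fold. *Laccase 2* (Dmel-Tmp-laccase2), the oxidase that hardens and darkens cuticle in beetles, was instead 3.70-fold higher in genitalia, with 21.99 to 46.9 CPM against 4.83 to 14.2 in the horns. *Punch* (Dmel-Tmp-pu), needed to make a cofactor of tyrosine hydroxylase, was 2.04-fold higher in the horns, and it was not called under scaling by library totals. Over the list, 7 of 17 tested genes were higher in the horns and 2 in genitalia, beside 25.5% and 24.5% of all genes. The median of the list was -0.21 and turned to 0.56 under library totals. *Osi7* (Dmel-Tmp-osi7), of the insect Osiris family of epidermal membrane proteins, had 8.92 ± 2.09 CPM in genitalia against 66.1 ± 11.5 and 33.6 ± 13.8 (SD, n = 6 each).

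A small set of abundant genes made up much of the horn libraries. The 20 most abundant genes of head horns and of thoracic horns shared 17, of which 10 were also among the 20 most abundant of genitalia. All 17 were higher than genitalia in each horn tissue, beside 18% of all genes. They were picked for high horn levels in these same libraries, so this count is not read. Of the 17, 6 had a homologue name, among them *Cht3*, *Cpr72Eb*, *serp* and *yellow-c*. Together the 17 took 7.65% to 11.02% of reads in genitalia, 25.1% to 41.5% in head horns and 23.6% to 31.2% in thoracic horns. The most abundant by mean, OtauTmpM005626 (OTAU005626; scaffold 62, 457710 to 458655), alone took 0.0903% to 0.827% of reads in genitalia, 2.57% to 6.05% in head horns and 2.96% to 10.9% in thoracic horns. A run of 18 genes on scaffold 41 between 36031 and 146883, picked out after its values had been seen, held 4 of the 17, among them OtauTmpM009223 and OtauTmpM009225. None of the 18 had a homologue name, 13 were tested, 12 of these were higher in the horns and 1, OtauTmpM009217, was higher in genitalia. Of all genes 25.5% and 24.5% were, and 10 of the 12 were higher than genitalia in each horn tissue. As the run was chosen by these values, its counts are not read. The run took 2.13% to 4.05% of reads in genitalia, 6.71% to 14.98% in head horns and 5.18% to 10.003% in thoracic horns.

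The largest horn-high differences without a homologue name included members of that run. OtauTmpS012531 (OTAU012531; scaffold 641, 114391 to 124597) had 0 to 0.663 CPM in genitalia, 30.4, 187 and 305 as its lowest, median and highest value in head horns and 30.8, 246 and 599 in thoracic horns (log2 fold change -10.12, standard error 1.02, adjusted p = 5.61e-07). OtauTmpM009216 and OtauTmpM009215 lie on scaffold 41, overlap on opposite strands and had log2 fold changes of -8.14 and -6.93, so reads may be shared between them. OtauTmpM013284 had 0.227 ± 0.175 CPM in genitalia, 36.6 ± 8.67 in head horns and 33.6 ± 11.2 in thoracic horns (SD, n = 6 each), and OtauTmpM016256 had at most 0.253 CPM in genitalia and 7.36 to 25.2 in the horns. All 12 horn libraries exceeded all genitalia libraries in each of the 5 genes.

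**Figure D4:**
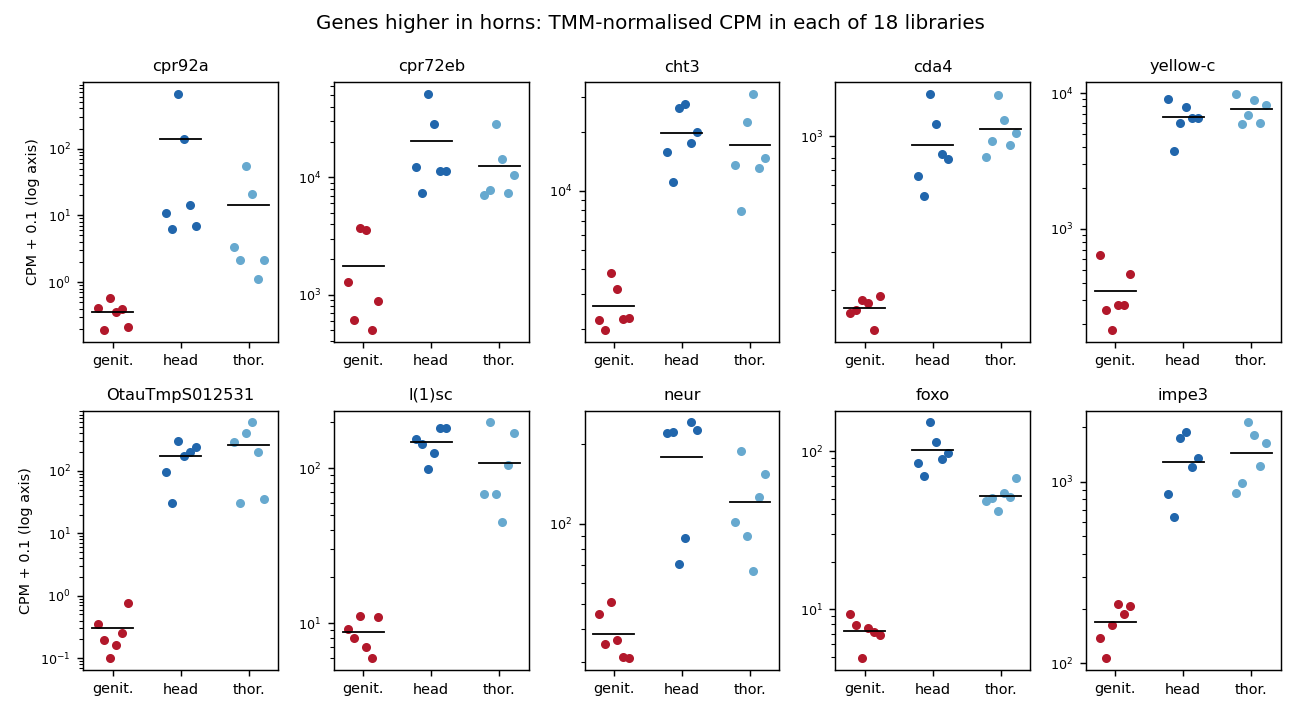
TMM-normalised CPM plus 0.1 on a log axis in each of the 18 libraries (1 point each, line at the tissue mean) for 10 genes higher in the horns. All 12 horn libraries lie above all 6 genitalia libraries in each panel, and *cpr92a* spreads from 1.00 to 655 CPM over the horn libraries while *foxo* stays between 41.7 and 152.

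Several genes of bristle and sense organ formation were higher in the horns. *lethal of scute* (Dmel-Tmp-l(1)sc, OTAU011475; scaffold 334, 50225 to 50989), a proneural bHLH gene of the achaete-scute complex, had 5.87, 8.50 and 11.05 CPM as its lowest, median and highest value in genitalia, 99.3, 149 and 183 in head horns and 44.9, 86.6 and 198 in thoracic horns (log2 fold change -3.88, standard error 0.32, adjusted p = 6.74e-08). *senseless* (Dmel-Tmp-sens), the zinc finger gene of sense organ precursors, was 3.76-fold higher, with 4.19 ± 1.40 CPM in genitalia against 24.4 ± 15.8 and 10.3 ± 3.92 (SD, n = 6 each). *pannier* (Dmel-Tmp-pnr), a GATA factor of the dorsal thorax in flies, and *u-shaped* (Dmel-Tmp-ush), its cofactor, were highest in thoracic horns, at 56.8 ± 8.48 and 66.3 ± 16.0 CPM, against 5.64 ± 2.97 and 32.6 ± 6.25 in head horns and 2.48 ± 1.56 and 14.7 ± 3.19 in genitalia (SD, n = 6 each). Of 11 tested proneural and bristle genes, 7 were higher in the horns and 1 in genitalia, beside 25.5% and 24.5% of all genes. The list had a median of -1.36 that stayed below 0 at -0.60 under library totals. In the Notch pathway, which singles out such precursors, the receptor gene *Notch* (Dmel-Tmp-n) had 232 to 442 CPM in genitalia and 494 to 849 in the horns, and *neuralized* (Dmel-Tmp-neur), needed to send the signal, was 3.82-fold higher in the horns. Of 13 tested Notch genes 5 were higher in the horns and 1 in genitalia, beside 25.5% and 24.5% of all genes. Their median was -0.15 and turned to 0.62 under library totals.

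Among growth genes, *foxo* was lower in genitalia and *Thor* was higher. *foxo* (Dmel-Tmp-foxo, OTAU008829; scaffold 31, 152215 to 162381), the transcription factor that insulin signalling holds out of the nucleus, had 4.80, 7.26 and 9.15 CPM as its lowest, median and highest value in genitalia, 69.7, 93.4 and 152 in head horns and 41.7, 50.7 and 67.2 in thoracic horns. It was 10.1-fold higher in the horns (log2 fold change -3.34, standard error 0.18, adjusted p = 2.89e-10), its groups did not overlap, and both genes next to it, OtauTmpA008828 and OtauTmpA008830, were also higher in the horns at -3.26 and -3.12. *Thor* (Dmel-Tmp-thor), the translation repressor gene that FoxO activates in flies, went the other way and was 2.45-fold higher in genitalia, with 66.98 ± 12.7 against 21.4 ± 6.34 and 34.9 ± 13.004 CPM (SD, n = 6 each). On the insulin and TOR list 6 of 16 tested genes were higher in the horns and 5 in genitalia. These counts stand beside 25.5% and 24.5% of all genes, and nothing is read from them.

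In the Fat and Hippo pathway, which limits the size of epithelia, 9 of 16 tested genes were higher in the horns and 2 in genitalia. Of all genes 25.5% and 24.5% were, and the median of the list turned from -0.47 to 0.28 under library totals. *lowfat* (Dmel-Tmp-lft), which stabilises the cadherins Fat and Dachsous in flies, had 82.2 to 89.2 CPM in genitalia and 151 to 299 in the horns, and *crumbs* (Dmel-Tmp-crb), the apical polarity gene, had 205 ± 40.03 against 384 ± 20.9 and 422 ± 53.8 (SD, n = 6 each). Under library totals *lft* kept its direction and call, *crb* was not called, and *warts* (Dmel-Tmp-wts), the kinase gene, and *yorkie* (Dmel-Tmp-yki), the gene of its target, turned from -0.56 and -0.49 to 0.20 and 0.27. Of 34 tested cell cycle and DNA replication genes 27 were higher in the horns and 2 in genitalia, beside 25.5% and 24.5% of all genes. The median of these genes was -0.47 and turned to 0.27 under library totals. *Top2* (Dmel-Tmp-top2), *string* (Dmel-Tmp-stg) and *polo* (Dmel-Tmp-polo), which act in chromosome separation and entry into mitosis, were 1.42-fold, 1.45-fold and 1.45-fold higher in the horns, and all 3 turned in direction under library totals.

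Ecdysone, the moulting hormone, drives cuticle formation in pupae. Of 26 tested genes of its synthesis, receptor and response, 9 were higher in the horns and 7 in genitalia. These counts stand beside 25.5% and 24.5% of all genes, and nothing is read from them. The response gene *ImpE3* (Dmel-Tmp-impe3) had 107, 175 and 212 CPM as its lowest, median and highest value in genitalia, 638, 1277 and 1875 in head horns and 867, 1431 and 2119 in thoracic horns. *Hr38* (Dmel-Tmp-hr38), a nuclear receptor of the adult epidermis in flies, was high in head horns only, at 43.2 ± 1.88 CPM against 6.58 ± 2.35 in thoracic horns and 3.77 ± 0.907 in genitalia (SD, n = 6 each), although genitalia were below each horn tissue. The receptor gene *EcR* (Dmel-Tmp-ecr) was 1.90-fold higher in the horns, a difference that was not called under library totals, and *shadow* (Dmel-Tmp-sad), the gene of an ecdysone-synthesising enzyme, 3.38-fold higher in genitalia, at 4.81 ± 0.880 against 1.51 ± 0.489 and 1.31 ± 0.645 CPM (SD, n = 6 each).

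The other horn-high genes with a homologue name belong to several classes. *GNBP3* (Dmel-Tmp-gnbp3), a recognition gene for fungi, had 96.4 ± 46.03 CPM in genitalia against 722 ± 151 and 964 ± 272 (SD, n = 6 each). *Pk1r* (Dmel-Tmp-pk1r), named after a neuropeptide receptor, was 14.04-fold higher in the horns, *Spn85F* (Dmel-Tmp-spn85f), a serpin gene, 12.4-fold, and *GluClalpha* (Dmel-Tmp-gluclalpha), a chloride channel gene, 10.9-fold. Dmel-Tmp-cg9593 was uneven between horns, with 39.6 ± 24.1 CPM in genitalia, 631 ± 258 in head horns and 4448 ± 1979 in thoracic horns (SD, n = 6 each). Dmel-Tmp-cg1887, Dmel-Tmp-cg14105, Dmel-Tmp-cg8213, Dmel-Tmp-cg5002 and Dmel-Tmp-cg17839, fly genes to which no role is given here, were 17.1-fold, 13.3-fold, 11.8-fold, 8.81-fold and 8.76-fold higher in the horns. None of these groups overlapped.

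**Figure D5:**
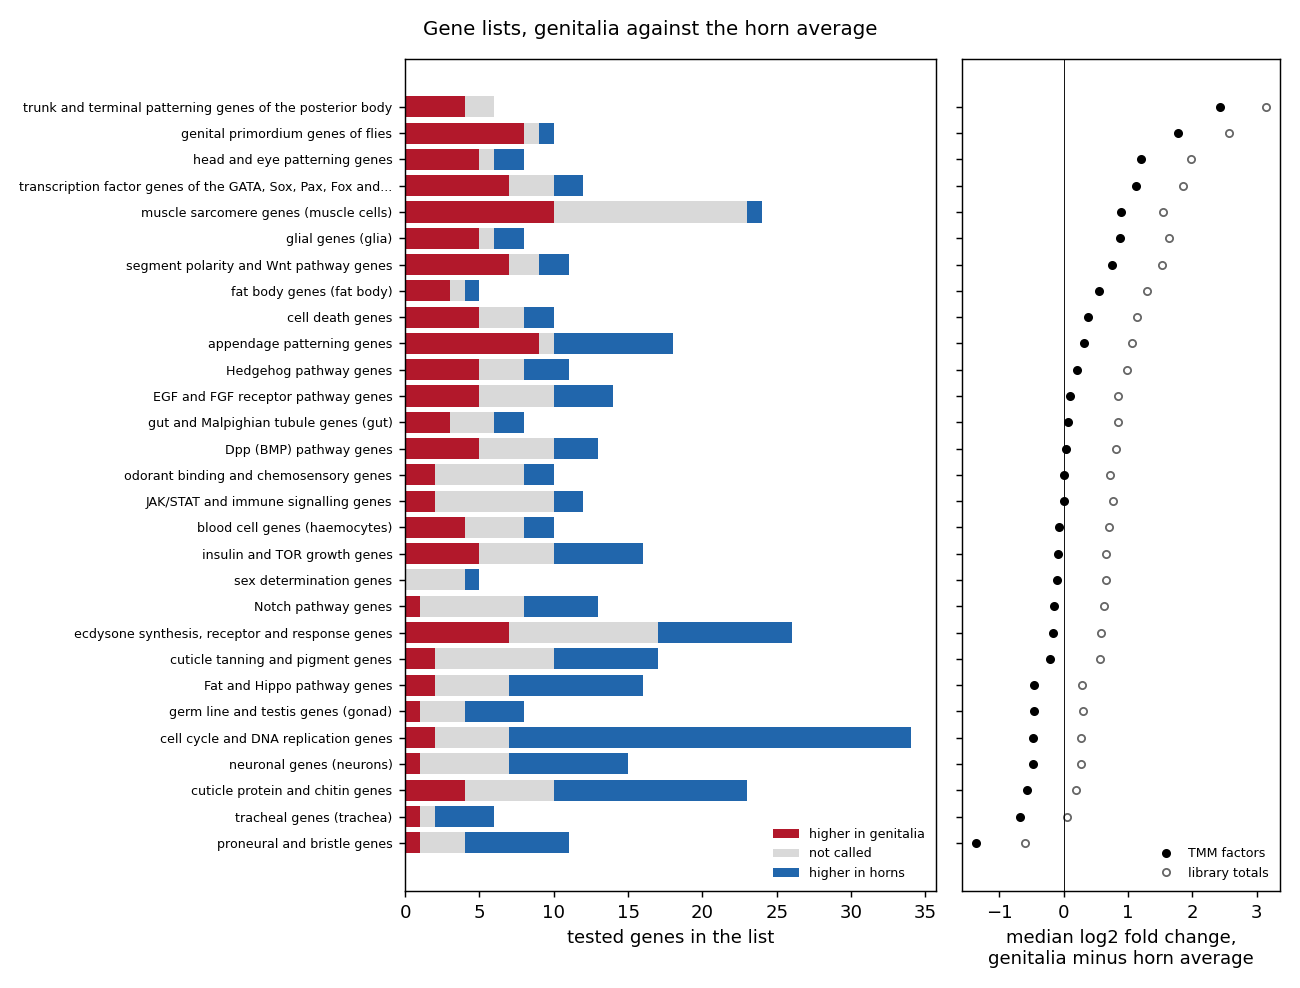
Left, the number of tested genes of each list that were higher in genitalia (red), higher in the horn average (blue) or not called (grey). Right, the median log2 fold change of genitalia over the horn average of each list with TMM factors (filled) and with library totals (open). Medians of lists such as cell cycle (-0.47) and cuticle (-0.57) lie below 0 with TMM factors and above 0 with library totals, whereas proneural genes stay below in both. Lists differ in how many members could pass the filter only through 1 tissue.

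Markers of cell types other than epidermis were counted too. Their counts stand beside 24.5% of all genes higher in genitalia and 25.5% in the horns, and no list was tested against these shares. Of 24 tested muscle genes 10 were higher in genitalia and 1 in the horns, and the summed level of the list was 4601.7 to 6498.3 CPM in genitalia, 1192.8 to 4528.0 in head horns and 1476.9 to 6388.3 in thoracic horns. *Mp20* (Dmel-Tmp-mp20), a muscle protein gene, had 88.8, 144 and 405 CPM as its lowest, median and highest value in genitalia, and 39.5 and 38.1 in head horn libraries S67 and S68, against 0.537 to 8.94 in the other 10 horn libraries. The troponin C genes *TpnC47D* (Dmel-Tmp-tpnc47d) and *TpnC25D* (Dmel-Tmp-tpnc25d) and *Myofilin* (Dmel-Tmp-mf) were 25.4-fold, 13.9-fold and 6.04-fold higher in genitalia. *TpnC47D* could pass the filter only through genitalia, so the count of muscle genes is not read. *htl*, a gene of muscle precursors, was higher in genitalia too. The part of muscle in the differences of other genes was not tested.

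Neuronal, glial and blood cell counts stand beside 24.5% of all genes higher in genitalia and 25.5% in the horns. Of 15 tested neuronal genes 8 were higher in the horns. Under library totals 2 were, 5 were higher in genitalia, and the median turned from -0.48 to 0.26. The 1 higher in genitalia was *bruchpilot* (Dmel-Tmp-brp), a gene of presynaptic active zones, at 73.6 ± 18.6 against 26.03 ± 10.2 and 17.8 ± 10.5 CPM (SD, n = 6 each). The sodium channel gene *paralytic* (Dmel-Tmp-para) and *Neurexin-1* (Dmel-Tmp-nrx-1) were 3.38-fold and 2.62-fold higher in the horns. Glial genes were higher in genitalia in 5 of 8 tested cases and higher in the horns in 2, with *Gs2* (Dmel-Tmp-gs2), a glutamine synthetase gene, at 305 ± 91.6 against 51.3 ± 36.3 and 31.5 ± 14.2 CPM (SD, n = 6 each) and *moody* (Dmel-Tmp-moody), a gene of the blood-brain barrier, 3.44-fold higher in genitalia. The glial gene *wrapper* (Dmel-Tmp-wrapper) had 1.88 to 4.55 CPM in genitalia and 0.311 to 2.52 in the horns. It could pass the filter only through genitalia, so the glial count is not read. Of 10 tested blood cell genes 4 were higher in genitalia and 2 in the horns, and the latter included *Hemolectin* (Dmel-Tmp-hml), a clotting gene of haemocytes, which had 36.6, 99.4 and 265 CPM as its lowest, median and highest value in genitalia, 104, 287 and 329 in head horns and 379, 2184 and 3260 in thoracic horns. *eater* (Dmel-Tmp-eater), a phagocytosis receptor gene of the same cells, was 2.49-fold higher in genitalia. The summed level was 614 to 1005, 515 to 1061 and 514 to 1099 CPM for neuronal genes in genitalia, head horns and thoracic horns, 1082 to 1465, 922 to 1102 and 885 to 1112 for glial genes, and 2900 to 4132, 3298 to 4213 and 2706 to 5723 for blood cell genes.

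Fat body, tracheal and germ line counts stand beside 24.5% of all genes higher in genitalia and 25.5% in the horns. Fat body genes were higher in genitalia in 3 of 5 tested cases and in the horns in 1. Their sums were 1597 to 3296 CPM in genitalia, 2598 to 8937 in head horns and 3399 to 9033 in thoracic horns. Most of each sum was *Tsf1* (Dmel-Tmp-tsf1), the gene higher in the horns, at 1507 to 3168, 2536 to 8905 and 3358 to 9006 CPM in the same order. Tracheal genes were higher in the horns in 4 of 6 cases and in genitalia in 1, with sums of 4234 to 5357, 7519 to 22290 and 9858 to 19814 CPM. Of these genes *serp*, *verm* (Dmel-Tmp-verm) and *pio* (Dmel-Tmp-pio) are also on the chitin list. Their medians in genitalia were 1618.7, 1340.5 and 1275.6 CPM, so the tracheal sums are largely not separate from that list. The median log2 fold change of the tracheal list turned from -0.69 to 0.06 under library totals. Of 8 tested germ line and testis genes 4 were higher in the horns and 1 in genitalia, and the sums were 515 to 700, 927 to 1142 and 876 to 1124 CPM. Neuronal and gonad markers that failed the filter had few reads, with at most 21 reads of *cacophony* (Dmel-Tmp-cac), 8 of *VGlut* (Dmel-Tmp-vglut), 1 of *Gad1* (Dmel-Tmp-gad1) and 3 of *traffic jam* (Dmel-Tmp-tj) in any of the 18 libraries. The part of all these cells in the differences of other genes was not tested.

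For the other lists the counts were as follows, beside 24.5% of all genes higher in genitalia and 25.5% in the horns. Head and eye patterning genes were higher in genitalia in 5 of 8 tested cases and in the horns in 2, and transcription factors of the GATA, Sox, Pax, Fox and T-box families in 7 and 2 of 12. Members near 0 in the horns, such as *lim1* and *Six4* on the former list and *fkh* and *fd96Ca* on the latter, could pass the filter only through genitalia. Neither of these counts is therefore read. Cell death genes were higher in genitalia in 5 of 10 cases and in the horns in 2, JAK/STAT and immune genes in 2 and 2 of 12, and odorant binding and chemosensory genes in 2 and 2 of 10. Of 4 juvenile hormone genes 1 was higher in the horns and none in genitalia. Of 2 tested Osiris genes 1 was higher in each.

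*dsx* itself was detected in all 3 tissues. Its gene (Dmel-Tmp-dsx, OTAU004153; scaffold 241, 699490 to 703641) had 19.2, 26.7, 22.3, 24.4, 25.1 and 34.4 CPM in genitalia libraries S91 to S96, 35.8, 29.2, 77.9, 62.3, 37.5 and 36.8 in head horn libraries S67 to S72, and 34.1, 39.2, 32.5, 36.1, 32.8 and 42.6 in thoracic horn libraries S43 to S48. Genitalia tended to be the lowest but library S96 lay within the range of both horn tissues, and S69 and S70 were the highest. The log2 fold change was -0.70 (standard error 0.18, adjusted p = 0.00404), -0.88 against head horns (adjusted p = 0.0021) and -0.52 against thoracic horns (adjusted p = 0.052). It turned to 0.10 under library totals and was not called in a fit of all 96 libraries. The counts do not separate the male and female transcripts of *dsx*. Of the 5 tested sex determination genes *dsx* was the 1 that was called. Of all genes 24.5% were called higher in genitalia and 25.5% in the horns, so nothing is read from this count.

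Whether the tissue difference depended on sex was tested as an interaction over the 36 libraries of control males and females. Of 10356 genes tested, 515 (4.97%) had a log2 difference of genitalia over the horn average that was higher in males and 792 (7.65%) one that was lower in males. The number depended on single female genitalia libraries, since the total of 1307 became 3118 without S89 and 752 without S87. S89 had the highest TMM factor of the female libraries, at 1.66, and a median r of 0.842 with the other female genitalia libraries. Of the 4961 genes called in control males, 88.7% had the same sign in control females, 3468 were also called there, and 793 passed the interaction. Both *abd-b* and *lim1* were higher in the genitalia of each sex. *abd-b* had a log2 fold change of 10.27 in females, and the sex difference was -0.05 (adjusted p = 0.984). The log2 fold change of *lim1* (Dmel-Tmp-lim1) in the same fit was 8.89 in males and 7.35 in females, and the sex difference of 1.53 did not pass the test (adjusted p = 0.215).

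The gene with the smallest adjusted p in the interaction was OtauTmpA006789 (OTAU006789; scaffold 44, 438584 to 458856). With all groups on 1 scale it had 53.7 ± 35.9 CPM in male and 0.608 ± 0.278 in female genitalia (SD, n = 6 each), and 1.52 to 3.78 on average in the 4 horn groups of both sexes, a sex difference of 6.97 in the log2 tissue difference (adjusted p = 1.21e-09). *dpr13* (Dmel-Tmp-dpr13, OTAU009587), of a family of cell surface proteins of neurons, showed the opposite, with 0.896 ± 0.586 CPM in male and 35.6 ± 27.8 in female genitalia (SD, n = 6 each) and a sex difference of -5.89 (adjusted p = 3.33e-08). *wg*, its neighbour OtauTmpA002715 and *Wnt6*, all on scaffold 3, each differed. *wg* had 18.1 ± 4.47 CPM in male and 5.37 ± 2.78 in female genitalia and 0.478 ± 0.391 in male and 3.24 ± 2.26 in female thoracic horns (SD, n = 6 each), so that its tissue difference in this fit was 3.30 in males and -0.03 in females. The sex difference was 3.33 in *wg* (adjusted p = 1.58e-04), 3.91 in OtauTmpA002715 and 2.40 in *Wnt6*.

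*ci* and *cv* also had opposite signs in the sexes, with tissue differences of 0.47 and 0.86 in males and -1.13 and -0.22 in females and sex differences of 1.60 and 1.08. *dac* had a sex difference of 2.36 and *rn* of 1.38. In the other direction, *osi7* had a tissue difference of -2.38 in males and 1.16 in females, with 70.4 ± 12.5 CPM in male and 7.30 ± 3.605 in female head horns (SD, n = 6 each), and OtauTmpS012531 a sex difference of -5.82, with 185 ± 104 and 5.57 ± 4.90 CPM in male and female head horns. *abrupt* (Dmel-Tmp-ab, OTAU000196), a BTB zinc finger gene, had 22.5 ± 3.02 CPM in male genitalia against 114 ± 10.6 and 268 ± 73.6 in the horns (SD, n = 6 each), and a sex difference of -2.63 (adjusted p = 5.06e-06). Muscle markers differed in the same test, with a tissue difference of 4.67 in males and 8.07 in females for *Mp20*, whose sex difference of -3.40 (adjusted p = 0.0444) was lost when any of 21 libraries was left out, and *TpnC47D* lost its call (sex difference -3.52) in 24 of 36 such fits.

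The same test was made over control and *dsx*RNAi males. On the scale of all groups, *dsx* had 27.03 ± 5.41 CPM in genitalia, 49.4 ± 19.7 in head horns and 38.1 ± 4.33 in thoracic horns of control males, and 9.94 ± 6.46, 11.2 ± 1.29 and 8.42 ± 5.88 in *dsx*RNAi males (SD, n = 6 each), so the targeted gene was lower in the knockdown in each tissue by its mean. Of the 4961 genes called in control males 97.7% had the same sign in *dsx*RNAi males and 3525 were also called there. The interaction of knockdown and tissue called 1 of 10360 genes (0.00965%), while 379 had an unadjusted p under 0.05, and DESeq2 called 22. The gene called, OtauTmpM003780 (OTAU003780; scaffold 73, 274897 to 275917), had 2.77 ± 1.58 CPM in genitalia, 27.8 ± 12.4 in head horns and 6.30 ± 4.05 in thoracic horns of control males (SD, n = 6 each). On the scale of all groups its head horn mean was 29.5 ± 12.9 in control and 4.17 ± 2.65 in *dsx*RNAi males and its genital mean 2.95 ± 1.68 and 6.62 ± 6.18 (SD, n = 6 each), a difference of -3.96 in the log2 tissue difference (adjusted p = 0.0112). Without *dsx*RNAi genitalia library S82 it was not called (adjusted p = 0.0556). OtauTmpM003780 also had a sex difference of -4.36 (adjusted p = 5.78e-04). *dsx*RNAi male libraries S34, S35, S58, S59, S82 and S83 had a lower median r with their groups than the others, between 0.8498 and 0.888, and are the fourth and the fifth by number in each tissue. Leaving out single libraries gave between 0 and 3 calls.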

How the data were processed

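RNA of control male genitalia, head horns and thoracic horns was compared in 18 libraries, 6 per tissue, of a series of 96. The count table deposited by the authors holds whole reads per gene model of *O. taurus* v0.5.3, and the submitters' processing notes name Trimmomatic 0.32, TopHat2 2.1.0, HTSeq 0.6.1p1 and DESeq2. The FPKM values deposited by the authors, which are scaled to gene length and library size, were read into the tables, but no value given here rests on them. Libraries were stranded, and whether reads were counted by strand is not given in the sources used here. All 96 columns were mapped to samples by title.

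Genes passing filterByExpr were tested in edgeR 4.0.16 (R 4.3.3, limma 3.58.1) with TMM factors and robust quasi-likelihood fits, genitalia minus the average of both horns, with Benjamini-Hochberg adjustment at 0.05. The 2-fold calls used glmTreat. Interactions with sex or knockdown were fitted over 36 libraries each. CPM values were scaled by TMM factors. Figures were drawn in Python 3.11.15 with matplotlib 3.10.9. Scripts were tested on simulated data. A fold against horn libraries at 0 was computed against a floor of 3 reads in each library. Alternatives were DESeq2 1.42.0, its size factors in edgeR, no filter, a fit of all 96 libraries, each library left out, and, chosen after seeing the data, library totals and head horn libraries S69 and S70 left out together.

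Total reads per library, 3615803 to 13597870, set the precision of low genes. The study dissected 6 male pupae per treatment for all tissues but no label tells which libraries share an animal, so the tests take libraries as independent, which they may not be across tissues, and p-values measure the spread between them.

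Named genes were, in each direction, the 15 with a homologue name and 5 without one that had the largest absolute log2 fold change among genes called against each horn tissue, without overlap and at 5 CPM or more in the higher tissue. To these were added the Hox genes, *dsx*, up to 6 genes per list and up to 10 per interaction. Gene lists were matched on homologue names, and members and lists were chosen with earlier results of these data known. The authors' deposited gene names were used, since none of the tested identifiers matched the reference gene table, and no sequences were used here.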

Additional observations from a re-analysis of the deposited data

Results flagged for a closer look

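Single libraries lay far from the other 5 of their group, with a gap to the nearest above Dixon's 95% critical value, in 28 of 330 groups (8.48%), in 22 genes. The 330 include groups whose values were all equal, which could not be flagged. Chance gives about 1 in 20 only for normally distributed values, and some groups hold only a few reads. No excess over chance is therefore read. The following CPM values are those of the flagged libraries.

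In genitalia, library S94 had 17.4 in OtauTmpM009216, 0.253 in OtauTmpM016256, 0.568 in OtauTmpM013284, 89.2 in *lft* and 265 in *hml*. S91 had 22.8 in *sp1* and 4.09 in OtauTmpM011431, S93 14.5 in *cg12164* and 43.4 in *cg17839*, and S92 1247 in *serp*. In head horns, S68 had 0.120 in each of *d*, *ubx* and OtauTmpM011431, which is 1 read. S67 had 0.410 in *cg12164*, and S69 had 655 in *cpr92a*. In thoracic horns, S45 had 54.8 in *cpr92a*, 28266 in *cpr72eb*, 2.85 in *wnt6* and 15.4 in *en*. S46 had 0.962 in *lim1*, 2796 in OtauTmpM009216 and 1.12 in *ubx*. S48 had 0.467 in *fkh*, 0.156 in OtauTmpM011151 and 80.3 in *stg*, S43 0.142 in *cg12164* and 525 in *crb*, and S44 23.3 in *cg1887*.

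The log2 difference of genitalia over the horn average was itself tested between control males and females in edgeR's interaction fit. It was higher in males by 6.97 in OtauTmpA006789, 3.91 in OtauTmpA002715, 3.61 in OtauTmpA002938, 3.40 in *cg30263*, 3.33 in *wg*, 2.64 in OtauTmpS013181, 2.40 in *wnt6*, 2.36 in *dac*, 1.98 in *aadat*, 1.60 in *ci*, 1.57 in *cg13229*, 1.52 in *sprt*, 1.38 in *rn*, 1.08 in *cv* and 0.57 in *top2*. The male minus female difference was -5.89 in *dpr13*, -5.82 in OtauTmpS012531, -4.36 in OtauTmpM003780, -3.61 in *cg5002*, -3.53 in *osi7*, -2.63 in *ab*, -1.93 in *tok*, -1.89 in *eater*, -1.84 in *brp*, -1.50 in *cg17839*, -1.42 in *yellow-c*, -1.32 in *spn85f*, -1.21 in *impe3* and -0.87 in *cg14105*. In the muscle genes it was -3.52 in *tpnc47d*, -3.41 in *tpnc25d*, -3.40 in *mp20* and -2.88 in *mf*. Control minus *dsx*RNAi males gave -3.96 in OtauTmpM003780. Of 36 fits that each left out 1 library, the call was lost in 24 for *tpnc47d*, 23 for *tok*, 22 for *eater*, 21 for *mp20*, 19 for *cg17839*, 17 for *cg14105*, 14 for *cg13229*, 2 each for *spn85f* and *impe3*, 1 for *mf* and 1 for the knockdown difference of OtauTmpM003780.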

How the results depend on the processing

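With library totals in place of TMM factors, 7719 genes were higher in genitalia and 474 in the horns, 1291 and 192 over 2-fold, 7826 differed from head horns and 7848 from thoracic horns, 6891 and 309 differed from both horns in each direction, and the sex and knockdown interactions called 294 and 2. The log2 difference turned to 0.10 in *dsx*, 0.20 in *wts*, 0.27 in *yki*, 0.26 in *top2*, 0.22 in *stg* and 0.21 in *polo*. A fit of all 96 libraries called 1144 genes as higher in both horns and 11 in the knockdown interaction, and DESeq2 called 22 in the latter. Of the 4961 calls, 99.2% were shared with DESeq2, 98.8% with its size factors, 94.1% without the filter, 92.6% without head horn libraries S69 and S70, 80.6% under library totals and 76.6% with all 96 libraries. The cause was not tested.

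With 1 library left out, the count was 2176 to 2534 for genitalia-high and 2330 to 2564 for horn-high genes, 468 to 622 and 319 to 365 over 2-fold, 4144 to 4725 against head horns, 3782 to 4385 against thoracic horns, 1382 to 1633 and 1590 to 1815 against both, 752 to 3118 for the sex interaction (lowest without female genitalia library S87, highest without S89) and 0 to 3 for the knockdown interaction (0 without S82). The 110 named tissue differences kept direction and call under DESeq2, its size factors, no filter and without S69 and S70, while 4 lost the call in the fit of all 96 libraries and 6 under library totals. Of 34 named sex or knockdown differences, 5 lost the call with all 96 libraries, 6 without the filter, 4 without S69 and S70 and 12 under library totals, and 11 lost it in at least 1 fit with a library left out, in 146 fits in all. No paired analysis was possible because each library has its own number and the labels pair no libraries across tissues. The study took all tissues from the same pupae, so libraries of different tissues may share an animal. *Cpr72Eb*, *Cht3* and *Dat* were each highest at the same places in the numbering of each tissue. Dependence of this kind is not in the p-values. Genes with a few reads per library were limited by depth.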
